A study of Mus musculus with 3 samples.

Results

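Base and nucleotide excision repair were described through 34 genes whose products find damaged bases, cut them out, fill the gap and seal the strand, chosen by gene symbol from 18121 protein-coding genes of the table. RNA came from cortical neurons dissociated from Swiss-Webster mouse embryos, an outbred stock, at embryonic day 16. The neurons were wild type, received no drug and were kept in neurobasal medium with B27. They gave 3 libraries of 1 group, so no condition could be compared, and the comparisons below are between genes within the same libraries. The study maps where the topoisomerase TOP2B acts in the neuronal genome. Each value is in TPM, a transcript's length-corrected share of the reads, scaled to a sum of 1000000. A gene's value is that of its longest protein-coding transcript, given as mean ± SD (n = 3), and the highest transcript row of the gene serves as a check. Whether each library had a culture of its own is not in the labels, so SDs and p-values describe the variation among these 3 libraries, part or all of which may be technical.

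Base excision repair deals with small lesions such as oxidised, deaminated or alkylated bases. A DNA glycosylase removes the base, an AP endonuclease cuts the strand at the empty sugar, a polymerase fills the gap and a ligase seals it, while PARP enzymes sense the open strand and XRCC1 holds the repair factors together. Nucleotide excision repair deals with bulky lesions. XPC and the DDB proteins find them anywhere in the genome, CSA and CSB (Ercc8 and Ercc6) act where RNA polymerase stalls, TFIIH opens the helix and a pair of nucleases cuts out the patch. Neurons do not divide, so both routes act in them without the help of replication. Inherited defects of several of these genes, among them Aptx, Tdp1, Xrcc1, Ercc6 and Ercc8, cause disease of the nervous system.

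Summed over each gene's row with the most reads, the libraries held about 26700000, 23600000 and 23200000 reads on annotated transcripts. Reads counted for more than 1 gene would enter these sums more than once, and reads only on other rows are left out. For a transcript of 2 kb, 1 TPM was worth 103, 86.5 and 91.4 reads in libraries 1, 2 and 3. All 6 neuronal markers were high, from Rbfox3 at 22.6 ± 0.0276 TPM to Stmn2 at 687 ± 55.6 TPM. All 6 astrocyte markers were detected too, from S100b at 3.16 ± 0.781 TPM to Slc1a3 at 184 ± 19.1 TPM, and so were all 6 of the oligodendrocyte lineage. Of the proliferation markers 6 of 7 reached 1 TPM, none of them 10 TPM, and Mki67 stood at 1.80 ± 0.384 TPM. Of the microglial markers 1 of 6 reached 1 TPM, Aif1 at 1.03 ± 0.425 TPM. Of the endothelial and mural markers 1 of 5 did, Pdgfrb at 1.08 ± 0.311 TPM. Tmem119 and Cldn5 were listed at 0 in all 3 libraries, and the other markers of these lists had means above 0. In such bulk samples fewer cells that express a gene and less RNA per cell cannot be told apart.

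A result that needs its sequence first concerns Tdg, the glycosylase that removes thymine from G:T mismatches and acts in active DNA demethylation. Its longest coding transcript (mm10 chromosome 10, 82629859 to 82650799, plus strand, 10 exons) stood at 0.184, 0.198 and 0.338 TPM in libraries 1, 2 and 3. Only 42.9% of its 50-base words occur at no other annotated locus, whereas 33 of the 34 genes have at least 90% unique words and 28 have all words unique. The rest of the Tdg words lie mainly in 3 processed pseudogenes, intronless copies of its mRNA, with 122 also in a shorter one on chromosome 19. The lines below give 120 coding bases of Tdg around the junction of exons 9 and 10 and the same stretch of each copy, from the GENCODE transcripts. In the Tdg line the capitals are the first bases of exon 10, and in the other lines they are bases that differ from Tdg.
Tdg: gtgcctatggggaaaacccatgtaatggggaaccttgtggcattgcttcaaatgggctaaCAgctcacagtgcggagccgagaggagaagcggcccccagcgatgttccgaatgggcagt
Gm9855: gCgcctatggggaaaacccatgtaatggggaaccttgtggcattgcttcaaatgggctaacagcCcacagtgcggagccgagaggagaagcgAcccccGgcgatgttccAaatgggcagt
Gm5597: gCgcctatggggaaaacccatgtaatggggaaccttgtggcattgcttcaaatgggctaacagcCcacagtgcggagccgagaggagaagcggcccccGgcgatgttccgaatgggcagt
Tdg-ps: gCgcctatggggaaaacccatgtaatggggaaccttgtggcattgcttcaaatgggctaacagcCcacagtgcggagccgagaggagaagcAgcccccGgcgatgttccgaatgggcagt

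In this stretch Gm9855 differs from Tdg at 5 bases, Gm5597 at 3 and Tdg-ps at 4, and none of them has an intron at the junction. Over the whole alignment Gm9855 (mm10 chromosome 10, 42054113 to 42055306, minus strand) is 99.2% identical to Tdg over 1194 bases. It holds 876 of the Tdg words and the bases around 7 of the 9 exon junctions without a break. Gm9855 stood at 5.70, 5.46 and 5.23 TPM, on 349, 282 and 285 reads, above Tdg in every library. Tdg itself rested on 33, 30 and 54 reads. Gm5597 (chromosome 7, 76244746 to 76245938, minus strand) was listed at 0 in all libraries, and Tdg-ps (chromosome 15, 82516311 to 82519278, plus strand) had 1 read in library 1 and none in the others. If all reads of the Tdg row lay on its unique words, its mean would be 0.559 TPM. That value leaves out the reads on Gm9855. The level of Tdg is therefore uncertain, and whether reads of Tdg and Gm9855 were exchanged was not tested.

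**Figure D1:**
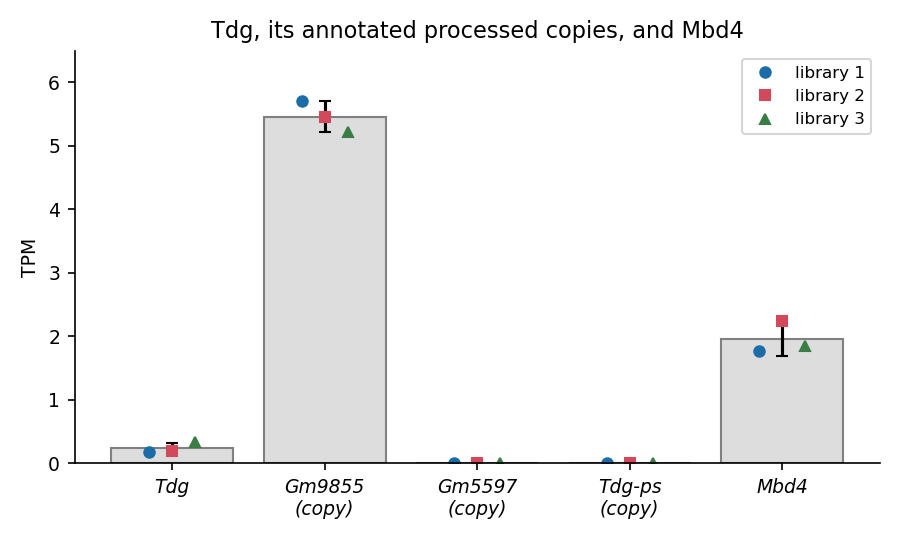
TPM of Tdg, of its 3 annotated processed copies and of Mbd4, the other glycosylase for G:T mismatches, in each library (points), with the mean and SD as bars (n = 3). Gm9855 stands above 5 TPM in all libraries, and Tdg below 0.4 TPM.

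Most of the 34 genes were transcribed at low to moderate levels. At a mean of at least 1 TPM 28 of 34 were detected (82.4%), where 61.5% of all protein-coding genes reached that level on the same kind of row. At 10 TPM or more stood 7 of 34 (20.6%), where 26.4% of all protein-coding genes did, so most of the genes lay between these limits. With the chosen rows of nuclear protein-coding genes rescaled to a sum of 1000000, 26 of the 34 stood at 10 TPM or more, where 53.9% of all did, so whether the genes lie above or below the background at 10 TPM turns with the scale. The median of log2(mean TPM + 1) was 2.43 ± 0.06 over the 34 genes, with the SD of the 3 library medians, and 1.94 over all protein-coding genes. Among detected protein-coding genes alone it was 3.19, and 2.54 for the 28 detected repair genes. The 6 genes under 1 TPM were Ung, Apex2, Mutyh, Neil3, Tdg and Neil2, all glycosylases but Apex2. Of these, Tdg has an uncertain level because of its copies. Just inside the limit lay Nthl1 at 1.55 ± 0.345 TPM and just outside it Ung at 0.651 ± 0.0956 TPM. In the order of all 34 levels 21 of 33 neighbouring genes had library ranges that overlapped, so most neighbours cannot be ranked.

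**Figure D2:**
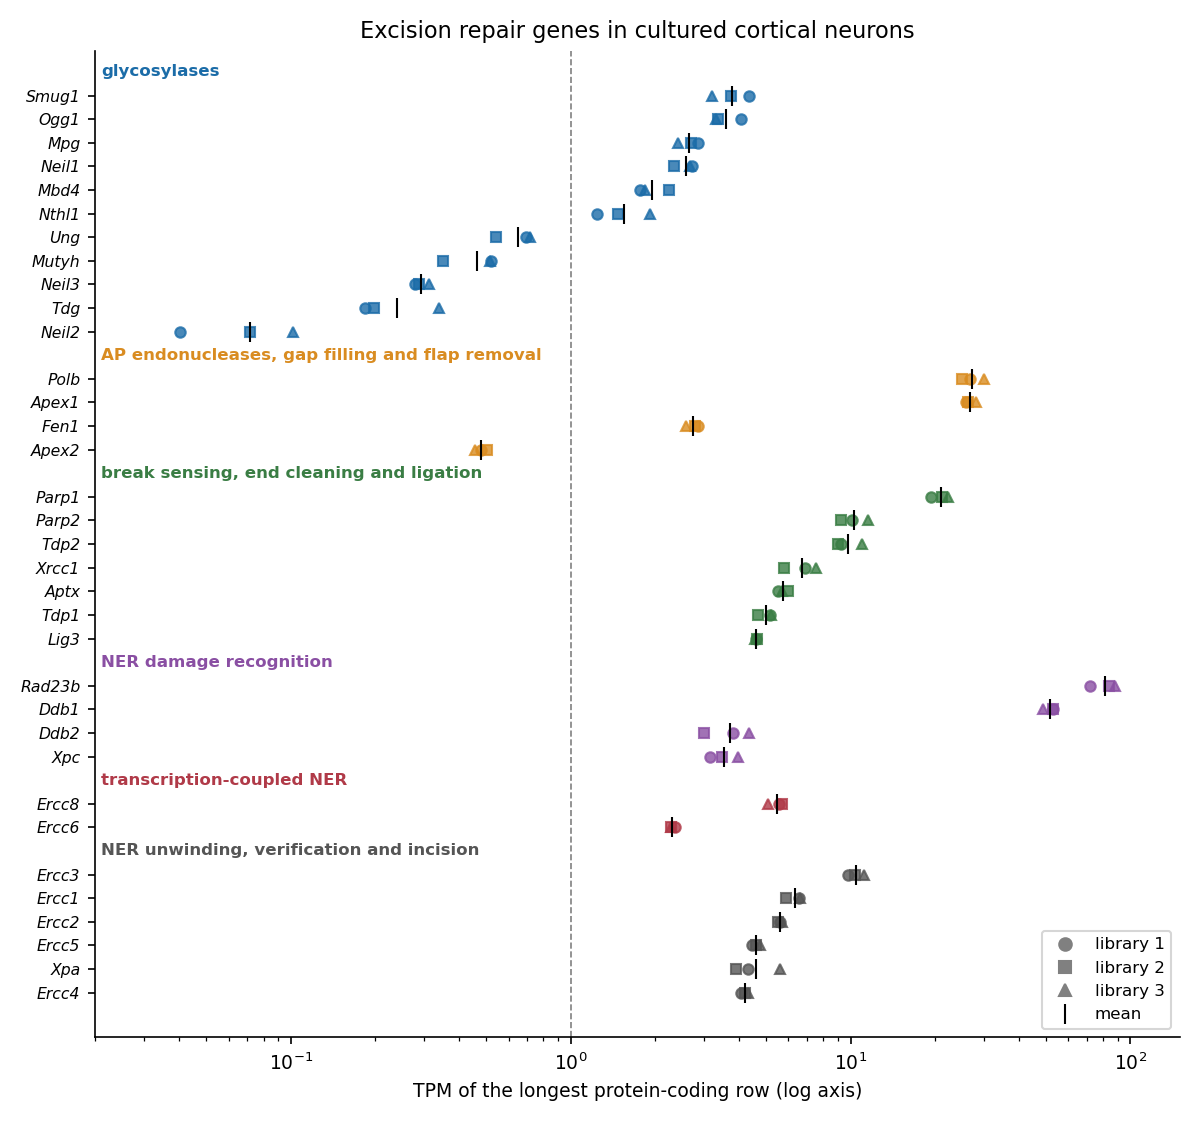
TPM of each of the 34 genes on a log axis, grouped by role, with a symbol per library and a tick for the mean. The dashed line marks 1 TPM. The 5 glycosylases and Apex2 left of it are the 6 genes below the detection limit.

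Glycosylases start base excision repair, each with its own set of damaged bases. As a group they were the lowest, with 6 of 11 detected (54.5%), where 61.5% of all protein-coding genes were. Tdg, whose level is uncertain because of its copies, counts here as not detected. Whether the share lies below the background is therefore uncertain too. None stood at 10 TPM, where 26.4% of all did, and the median was 1.35 ± 0.17 on the log2(mean TPM + 1) scale. Smug1, which removes uracil and oxidised pyrimidines, stood at 4.35, 3.74 and 3.20 TPM in libraries 1, 2 and 3. Ogg1, the main enzyme for 8-oxoguanine, stood at 4.07, 3.37 and 3.31 TPM. Both were highest in library 1, and their ranges overlapped. Mpg, which removes alkylated purines, stood at 2.65 ± 0.214 TPM and Mbd4, which acts on mismatched thymine and uracil at CpG sites, at 1.95 ± 0.259 TPM.

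Ung, the main uracil glycosylase, stood at 0.694, 0.541 and 0.717 TPM. In each library it lay below Smug1, with a mean difference of -1.52 ± 0.20 in log2(TPM + 1). Mutyh, which removes adenine paired with 8-oxoguanine, stood at 0.519, 0.350 and 0.516 TPM on 44, 25 and 39 reads. Ogg1 exceeded it by 1.65 ± 0.12 on that scale, again in all 3 libraries. The partners in handling 8-oxoguanine were thus present at unequal levels, 7.76 times apart in mean TPM.

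The NEIL enzymes and NTHL1 are bifunctional glycosylases for oxidised bases. Neil1 stood at 2.72, 2.35 and 2.68 TPM and Nthl1 at 1.25, 1.48 and 1.93 TPM, and Nthl1 was lower in each library (-0.50 ± 0.21). Neil2 stood at 0.0404, 0.0718 and 0.102 TPM, on 4, 6 and 9 reads. Neil3, best known from proliferating progenitors, stood at 0.277, 0.287 and 0.311 TPM, on 32, 28 and 32 reads. Neil2 was the lowest of the 34 genes in all libraries. It lay under Neil1 by 1.74 ± 0.10 and under Neil3 by 0.27 ± 0.02 on the log2(TPM + 1) scale, which understates ratios of such low genes. With the longest row of any type Neil2 lay above Neil3, by 0.046, because that row of Neil3 is a retained-intron model at 0.0374 TPM. On the highest rows the difference was -0.27, as on the coding rows. These 2 genes could thus not be ranked across all kinds of row. All words of the Neil2 and Neil3 rows are unique among annotated loci.

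Of the 4 genes for strand cutting, gap filling and flap removal, 2 stood above 10 TPM, where 26.4% of all protein-coding genes reached 10 TPM. Polb, the gap-filling polymerase of base excision repair, stood at 26.7, 25.1 and 30.0 TPM. Apex1, the main AP endonuclease, stood at 25.8, 26.2 and 28.0 TPM, a range within that of Polb. Its paralog Apex2 stood at 0.477, 0.502 and 0.457 TPM, and each library had Apex1 far above it, by 4.23 ± 0.08 in log2(TPM + 1). The mean TPM of the 2 genes was 55.7 times apart on the coding rows and 28.3 times on the highest rows. On its highest row, a coding model of 795 bases, Apex2 reached 1.24 ± 0.235 TPM, and it was the only gene that passed the limit of 1 TPM on the highest row alone.

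Fen1 cuts the flap left by long-patch repair and by replication. It stood at 2.84, 2.78 and 2.58 TPM, and Polb exceeded it in every library, by 2.92 ± 0.17 in log2(TPM + 1). The ligases were closer. Lig3, which seals nicks in the nucleus and in mitochondria, stood at 4.59, 4.62 and 4.56 TPM. Lig1, the replicative ligase, was not among the 34 genes and stood at 3.97, 3.32 and 4.50 TPM. Lig3 exceeded it by 0.19 ± 0.18, a difference about as large as its own spread although above 0 in each library. It was 0.06 on the highest rows and 0.09 without library 2, so the 2 ligases could not be ranked.

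Break sensing, end cleaning and ligation formed the one base excision group with every gene detected, 7 of 7, where 61.5% of protein-coding genes were. Its median was 2.95 ± 0.14 on the log2(mean TPM + 1) scale. Parp1, which binds nicked DNA and builds poly(ADP-ribose) chains, stood at 19.3, 21.3 and 22.3 TPM. Parp2, its smaller relative, stood at 10.1, 9.26 and 11.5 TPM. The library ranges of these 2 genes did not overlap, and Parp1 was higher by 0.96 ± 0.14, about 2.04 times in mean TPM. Xrcc1, the scaffold that binds Lig3, stood at 6.89, 5.80 and 7.52 TPM and exceeded Lig3 by 0.46 ± 0.17. On the highest rows, however, the sign turned, to -0.045. That row of Lig3 is a retained-intron model of 720 bases at 6.94 ± 0.141 TPM, while Xrcc1 has only its coding row. The scaffold and its ligase could thus not be ranked across rows.

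The end-cleaning enzymes had mean levels between 5 and 10 TPM. Tdp2, which removes trapped TOP2 from DNA ends, stood at 9.24, 9.04 and 11.0 TPM. Tdp1, which does so for TOP1, stood at 5.15, 4.66 and 5.21 TPM, below Tdp2 by 0.84 ± 0.11 in 3 of 3 libraries and by 1.69 with the longest row of any type. Aptx, which removes AMP left by an aborted ligation, stood at 5.51, 5.99 and 5.70 TPM. Its highest row, a model of 1378 bases marked for nonsense-mediated decay, stood at 15.4 ± 0.192 TPM, 2.68 times the coding row of 5383 bases. Transcript rows of a gene share reads, so this does not show how much of either transcript was present.

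**Figure D3:**
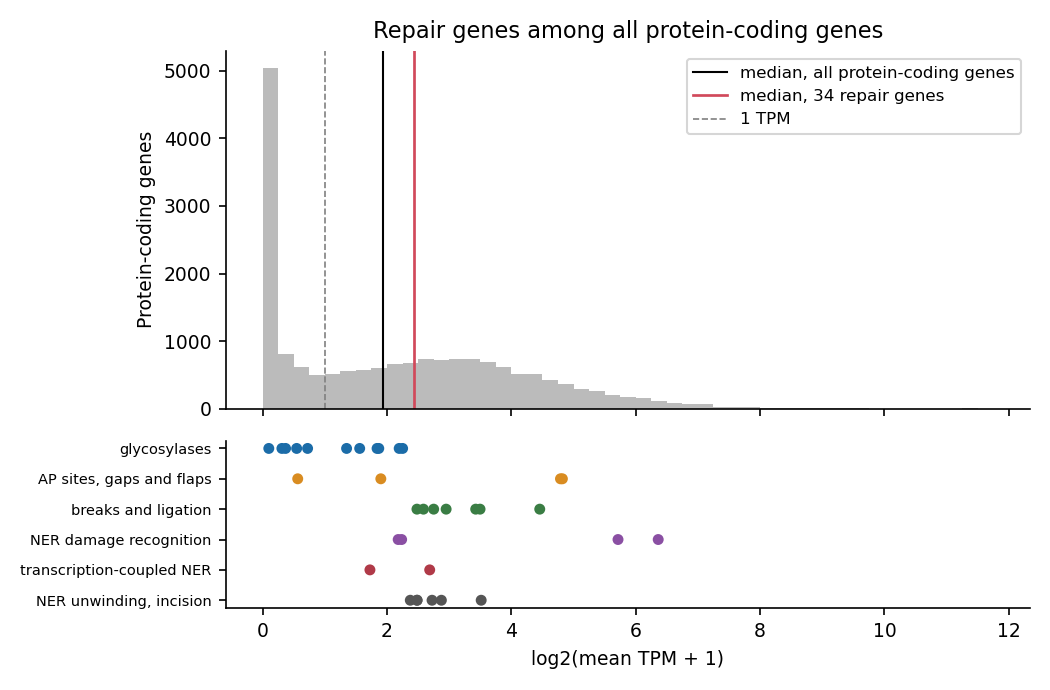
Upper panel, number of protein-coding genes by log2(mean TPM + 1), with the medians of all protein-coding genes (1.94) and of the 34 repair genes (2.43) as lines. Lower panel, each repair gene by role on the same axis. The glycosylases lie at the low end, and Rad23b and Ddb1 at the high end.

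Damage recognition of nucleotide excision repair held the most abundant genes. Rad23b, a ubiquitin-binding partner that stabilises XPC and also brings proteins to the proteasome, stood at 71.7, 83.8 and 88.3 TPM (mm10 chromosome 4, 55350043 to 55392237, plus strand). It ranked at percentile 97.8 of protein-coding genes. Ddb1, an adaptor of the CUL4 ubiquitin ligases, stood at 53.0, 52.8 and 48.9 TPM, percentile 95.5. Both have roles beyond repair. The recognition factors proper were far lower, with Ddb2 at 3.82, 2.99 and 4.32 TPM and Xpc at 3.14, 3.49 and 3.97 TPM.

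Ddb1 exceeded its partner Ddb2 by 3.49 ± 0.26 on the log2(TPM + 1) scale, and the difference held in 3 of 3 libraries. Ddb2 and Xpc overlapped in their library ranges. The sequences below are the RefSeq promoter windows (GRCm38.p6) of Rad23b, the gene with the highest level, and of Tdg, whose row is among the lowest and uncertain. Each runs from 250 bases before to 50 after the start site, and capitals mark the GC box GGGCGG.
Rad23b, chr4:55349792-55350091, plus strand: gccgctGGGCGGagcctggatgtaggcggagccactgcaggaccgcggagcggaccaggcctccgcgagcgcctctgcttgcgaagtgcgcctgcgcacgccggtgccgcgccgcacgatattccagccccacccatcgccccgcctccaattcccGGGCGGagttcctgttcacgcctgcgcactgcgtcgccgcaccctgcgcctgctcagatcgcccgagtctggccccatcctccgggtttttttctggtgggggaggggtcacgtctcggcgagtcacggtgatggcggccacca
Tdg, chr10:82629588-82629887, plus strand: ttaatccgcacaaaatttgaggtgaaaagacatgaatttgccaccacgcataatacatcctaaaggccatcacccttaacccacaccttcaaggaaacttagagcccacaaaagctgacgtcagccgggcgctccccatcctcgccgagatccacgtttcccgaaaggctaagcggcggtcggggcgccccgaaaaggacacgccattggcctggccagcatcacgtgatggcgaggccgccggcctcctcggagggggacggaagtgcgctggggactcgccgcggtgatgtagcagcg

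The Rad23b window is 70.7% G or C with 36 CpG dinucleotides, and the Tdg window is 59.3% G or C with 26. A window was found for 27 of the 34 genes, and 13913 protein-coding genes had one. The median GC content was 59.3% in both sets. An observed over expected CpG ratio of at least 0.6 was met by 23 of the 27 windows (85.2%), by 58.9% of all windows and by 78.3% of those of detected genes. On either strand, GGGCGG was found in 20 of 27 windows (74.1%) and in 56.3% of all, CCAAT in 15 (55.6%) and in 37.8% of all, and TATAAA in 2 (7.41%) and in 9.42% of all. None of these 3 motifs contains another. A match describes letters in the window and is not a bound site.

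Transcription-coupled repair is started by CSB and CSA at a stalled RNA polymerase. Ercc6, which encodes CSB, stood at 2.35, 2.28 and 2.29 TPM, and Ercc8, which encodes CSA, at 5.56, 5.69 and 5.07 TPM. The difference in log2(TPM + 1) was -0.96 ± 0.07, with Ercc6 the lower in each library. With the longest row of any type the sign turned, to 1.23, because that row of Ercc8 is a retained-intron model with a mean of 0.414 TPM. On its highest row Ercc8 stood at 9.50 ± 0.314 TPM, and the difference was -1.67.

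The genes that open and cut the damaged strand were all detected, 6 of 6, where 61.5% of all protein-coding genes were. Their means ran from 4.19 to 10.4 TPM. Ercc3, the XPB translocase of TFIIH, stood at 9.79, 10.4 and 11.1 TPM, and Ercc2, its XPD helicase, at 5.62, 5.53 and 5.69 TPM. The ranges of these 2 TFIIH subunits did not overlap, and Ercc3 was higher by 0.79 ± 0.08 on the log2(TPM + 1) scale. Xpa, which checks the lesion and places the other factors, stood at 4.29, 3.90 and 5.59 TPM. Its coding row of 1241 bases lay 2.41 times below its highest row, a non-coding model of 577 bases at 11.1 ± 1.88 TPM.

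ERCC1 and XPF (Ercc4) form the nuclease that cuts on the 5′ side, and XPG (Ercc5) cuts on the 3′ side. Ercc1 stood at 6.53, 5.90 and 6.58 TPM, Ercc4 at 4.05, 4.19 and 4.32 TPM and Ercc5 at 4.44, 4.61 and 4.74 TPM. Ercc1 exceeded its obligate partner Ercc4 by 0.50 ± 0.08. Ercc5 exceeded Ercc4 by 0.11 ± 0.0025, a small gap that was nearly the same in each library. Counting alone gives coefficients of variation of 3.46% for Ercc5 and 3.84% for Ercc4. The SD of the gap is narrower than such counting would give, so it does not measure the precision of the gap. These 3 nuclease genes lay within a factor of 1.51 of each other in mean TPM. On the highest rows the factor was 3.26, and the differences from Ercc4 rose to 1.496 for Ercc1 and 0.39 for Ercc5, so their closeness rests on the coding rows.

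**Figure D4:**
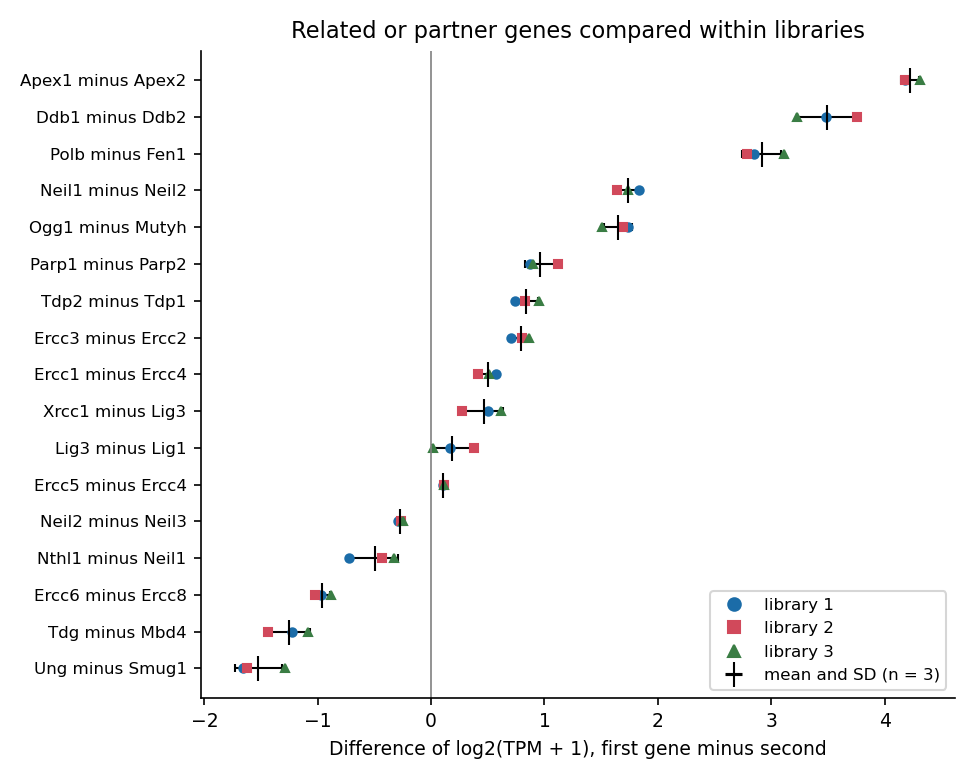
Difference of log2(TPM + 1) between the genes of 17 related or partner pairs, first gene minus second, in each library (points) and as mean with SD (n = 3). In every pair the 3 libraries lie on the same side of 0, from Apex1 minus Apex2 at 4.23 to Ung minus Smug1 at -1.52.

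In all 17 pairs the difference had the same sign in 3 of 3 libraries, and in 7 pairs it was larger than 1 on the log2(TPM + 1) scale. With signs flipped over libraries, an exact two-sided permutation test returned p = 0.25 for each pair, also after Benjamini-Hochberg adjustment over the 17 pairs, and 3 libraries cannot give a smaller p. None of the pairs therefore passes a test. Tdg lay below Mbd4 by 1.25 (-1.25 ± 0.18). On the highest rows the difference was -0.92, with Tdg at 0.584 ± 0.383 TPM. These values leave out the reads on Gm9855, so the size and the sign of this pair are uncertain.

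The other genes of these routes were described from a list of 41 genes. Of these 37 were detected (90.2%), where 61.5% of all protein-coding genes were. Their median was 2.82 ± 0.03 on the log2(mean TPM + 1) scale. At 10 TPM or more stood 12 (29.3%), near the 26.4% of all protein-coding genes. All 12 were listed under nucleotide excision, so the split between routes rests on the lists. For example, Rfc2, at 12.2 ± 0.317 TPM, was listed there but Rfc1 under base excision. Highest were Rbx1, the RING subunit of CUL4 ligases, at 42.8 ± 3.10 TPM, the TFIIH subunit gene Gtf2h5 at 41.5 ± 1.59 TPM and Cetn2, a partner of XPC, at 35.6 ± 0.727 TPM. Lowest were the replicative polymerase genes Pole2 at 0.428 ± 0.0979, Pole at 0.545 ± 0.142 and Pold1 at 0.670 ± 0.0872 TPM. Of the remaining base excision genes 12 of 14 were detected (85.7%), none at 10 TPM, with Pcna, the sliding clamp, the highest at 8.36 ± 1.20 TPM. Whether the rows of these 41 genes share words with copies elsewhere was not tested, so their levels lack that check.

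Reads could be recovered for all 34 rows. In 26 of 34 genes the coefficient of variation between libraries exceeded what counting alone gives, where 77.3% of protein-coding genes with reads in all libraries did, so the share was near the background. The median over the 28 detected genes was 7.52%, and 7.88% over all detected protein-coding genes. Rad23b, on 14008, 13801 and 15363 reads, varied by 10.5% where counting gives 0.835%. Neil2 varied by 43.1%, where counting gives 41.9%, so its spread was about that of its few reads. Lig3 varied by 0.618%, below the 2.81% that counting gives.

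**Figure D5:**
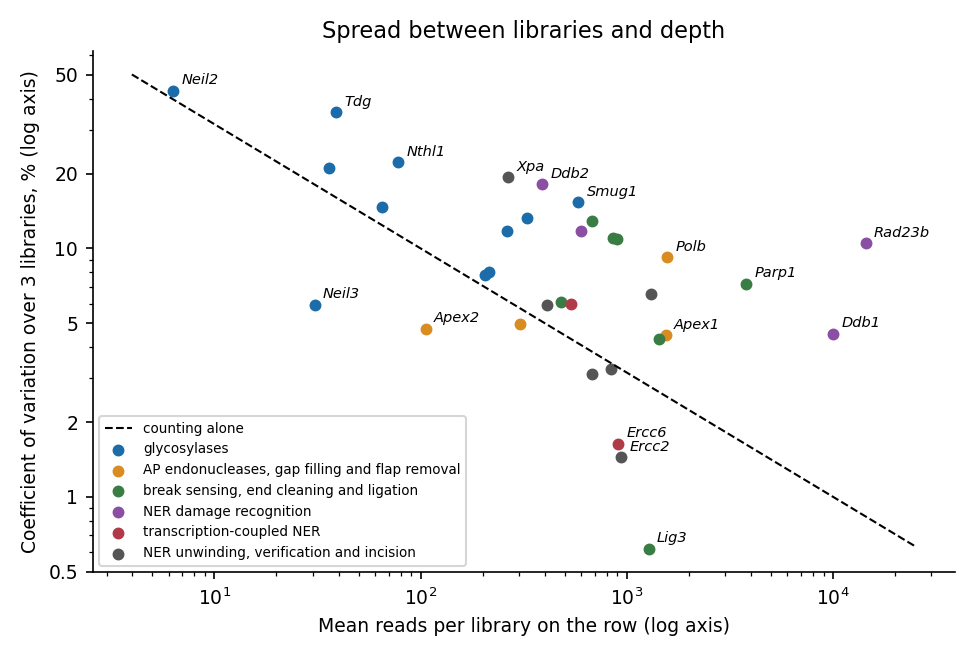
Coefficient of variation over the 3 libraries against mean reads per library on the row, both on log axes, for the 34 genes coloured by role. The dashed line is the spread that counting alone gives. Rad23b lies far above it, Neil2 near it and Lig3 below it.

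Library 3 gave the highest value in 17 of the 28 detected genes (60.7%), where it did so in 31.5% of all detected protein-coding genes. Library 2 was the highest in 4 of 28, against 40.3%. In library 3 the median deviation from the mean on the log2(TPM + 1) scale was 0.04 for the 28 genes and -0.02 for all detected genes. Cell markers differed between the libraries too. The summed neuronal markers were 1898, 1932 and 1715 TPM in libraries 1, 2 and 3, the astrocyte markers 338, 346 and 408 TPM, and the oligodendrocyte lineage markers 66.8, 49.3 and 83.6 TPM. The summed proliferation markers were 14.3, 11.3 and 14.5 TPM and the progenitor markers 25.2, 28.6 and 31.5 TPM. Their part in the levels of the repair genes was not tested.

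Some of these genes lie near each other or across other genes. Ercc1 and Ercc2 are 25.5 kb apart on chromosome 7 with 1 protein-coding gene between them, Parp2 and Apex1 104 kb apart on chromosome 14 with 3, and Fen1 and Ddb1 401 kb apart on chromosome 19 with 10. Ercc1 and Ercc2 stood at 6.34 ± 0.374 and 5.61 ± 0.0813 TPM, and their library ranges did not overlap. No row shared more than 5% of its exonic bases with a gene on the same strand, but 11 of 34 shared more than 5% with a gene on the opposite strand, where 15.1% of protein-coding genes did. The most overlapped were Fen1, with 80.4% under Gm10143, a gene at 0.0295 TPM on its highest row, Mpg, with 76.8% under Nprl3 at 4.34 TPM on its coding row, and Apex1, with 70.8% under Pip4p1 at 14.8 TPM on its coding row and 54.6 TPM on its highest row, above Apex1. The library kit marks the strand, but whether the counting used it is not given in the sources used here. Whether reads of these genes and of their partners were mixed was not tested. Ddb2 shares 27.9% of its exonic bases with Acp2, which stood at 16.3 TPM, above the 3.71 ± 0.673 TPM of Ddb2 itself.

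The choice of transcript row moved some levels. The highest row was the coding row itself in 13 genes, 8 of which have a single row in the table. In 12 of the 34 genes the highest row is not of a coding type. The shares of all protein-coding genes for these counts were not taken, so the counts describe these rows alone. In 6 of the 28 detected genes the highest row was at least 1.5 times the coding row, where 19.9% of detected protein-coding genes met that limit. These were Lig3, Aptx, Ercc8, Ercc2, Xpa and Ercc1. On the highest row Xpa (11.1), Aptx (15.4) and Ercc1 (13.7) passed 10 TPM. With the highest rows 29 of 34 genes were detected, where 62.9% of protein-coding genes were.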

How the data were processed

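The deposited table gives TPM, computed by the authors for each transcript of a GENCODE release and each of 3 libraries of strand-specific poly-A RNA. Per the submitters' processing notes, mm10 was the build, and the tools were Trimmomatic, TopHat, Bowtie and HTSeq, listed without role or version. How strand and multiple loci were counted is not given in the sources used here. Of 84660 rows 83017 matched a transcript of GENCODE M21 (same build) by identifier, and 47 of these lay elsewhere and were dropped. The gene value is the row of the longest protein-coding transcript. Rows were never summed, because rows of a gene share reads. Reads were recovered because the product of TPM and exonic length fell within 0.01 of whole steps of a fixed size in each library. This held in 99.8% of the rows above 0 whose ends match the M21 model. For members with other ends the length was adjusted by the difference, as for Ddb1 (4155 in place of 4459 bases). On simulated data for 74441 rows true reads were recovered in 100% of rows in each library. Those data were made of whole reads, so they check only that the step is found. No row above 0 was identical in 2 libraries, and library pairs differed beyond sampling noise (chi-square over its degrees of freedom 12.0, 17.0 and 18.5). Pairs were tested with an exact sign-flip permutation over libraries (Python 3.11.15, numpy 2.4.6). Log values are log2(TPM + 1). All 34 genes are named, as are paired genes, the 3 highest and 3 lowest of the other pathway genes and cell markers; the copies of Tdg and the genes on opposite strands were chosen after their values were seen. Members and lists were chosen with earlier results of these data known. The planned comparison of 1 further pair is not reported here. Unannotated sequence was not searched for copies.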

Additional observations from a re-analysis of the deposited data

How the results depend on the processing

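The deposited scale spreads 1000000 over rows that share reads, so absolute limits depend on it. Rescaled to nuclear protein-coding genes, the median of all protein-coding genes rose from 1.94 to 3.86 and that of the 34 genes from 2.43 to 4.45, and 26 of 34 genes stood at 10 TPM or more, where 53.9% of all did. At a limit of 5 TPM 14 of 34 were detected, where 40.5% of all were. The median of the 34 genes was 2.54 with detected genes only, 2.58 with the highest row, 2.15 with the longest row of any type and 2.16 with a pseudocount of 0.1. Of 119 pair differences under the alternatives 116 kept their sign. Turned were Xrcc1 minus Lig3 (-0.045, highest row) and, with the longest row of any type, Ercc6 minus Ercc8 (1.23) and Neil2 minus Neil3 (0.046). The median coefficient of variation over all 34 genes, 7.95%, was 11.0% with the highest row and 9.10% with the longest row. Leaving out each library in turn gave medians of 2.35 to 2.44 and coefficients of variation of 6.04% to 7.78%, the lowest of both without library 3. Leaving out Tdg, chosen after seeing the data, left 28 of 33 genes detected. The cause of these changes was not tested. No paired comparison of conditions was possible because there is only 1 group.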
